A study of Homo sapiens with 4 samples.

Results

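The enzyme complexes II to V of oxidative phosphorylation were followed here through the RNA of their nuclear genes in LASCPC-01 cells given PBS or ketotifen. The genes were taken by name from the deposited table: every row whose symbol starts with SDHA, SDHB, SDHC, SDHD, UQCR, UQCC, ATP5 or COX with a digit, plus CYC1 and CYCS. This gave 63 of 16376 rows, of which 8 belong to complex II, 13 to complex III, 22 to complex IV and 19 to complex V, and 1 is cytochrome c. A mean of at least 1 FPKM (fragment counts divided by gene length and by the total of the library) over the 4 libraries was needed for a test, and 60 of the 63 reached it. The other 3 were ATP5MGL, with 1 value above 0 (0.038 FPKM in PBS library A), COX6B2 and COX7A1.

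LASCPC-01 is a human line of neuroendocrine prostate cancer, derived from benign prostate epithelial cells into which N-Myc and an active form of AKT1 were introduced; all 4 libraries share these transgenes, and their genotype label is WT. Ketotifen is an antihistamine that blocks the H1 receptor; no dose is used here. PBS, the control, was given to 2 samples and ketotifen to 2, all at day 3. The table's columns carry the letters A and B within each group, and whether A and B are separate cultures is not stated, so p-values measure only the spread between libraries, which may be technical. A bulk measurement cannot tell fewer cells apart from less RNA per cell.

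Complex II, succinate dehydrogenase, takes electrons from succinate and is the one complex of the group that is also an enzyme of the citric acid cycle. Complex III passes electrons from ubiquinol to cytochrome c, and complex IV passes them on to oxygen. Complex V, ATP synthase, uses the proton gradient to make ATP with a rotating ring in the membrane and a catalytic head, F1. Complexes III, IV and V also have subunits encoded in mitochondrial DNA, for which the table holds 0 rows, and many of these nuclear genes are known targets of the transcription factors NRF1 and GABP, an ETS factor.

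The depth was read from the FPKM values, which within a gene come in steps of 1 read. Recovered reads summed to between 31313132 and 34979380 per library, and a tested gene of the group had between 63 and 59193 reads in a library. These are the smallest whole numbers that fit, so a gene whose counts share a factor in all 4 libraries is counted too low. Levels correlated across tested genes at 0.996 between the PBS libraries and at 0.998 between the ketotifen libraries. PBS library A correlated with both ketotifen libraries at 0.996, as highly as with its own partner, and PBS library B with them at 0.993 and 0.994. The line's markers were mixed: UCHL1, a ubiquitin hydrolase of neurons and neuroendocrine cells, was at 434 to 490.2 FPKM, while SYP, CHGA and NEUROD1, which define neuroendocrine cells in tissue, were under 1 FPKM in every library. Of 12 fibroblast, immune and endothelial markers, 10 were under 1 FPKM in every library; COL1A1 was at 1.95 to 2.75 FPKM and CD68 at 2.77 to 3.97 FPKM.

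Short stretches of promoter are shown for 4 of the tested subunits with the smallest p-values (SDHD, UQCRQ, COX6B1 and ATP5ME) and for the subunits with the highest level in complexes II, III and IV. COX6C had a smaller p-value than ATP5ME, but no promoter window was found for it. ATP5F1B, the highest of complex V, is named only. They are shown because the results describe these genes and because NRF1 and GABP sites are what the group is known for. Each line gives 30 bases, 5′ to 3′ on the strand of the gene, from RefSeq's promoter windows (GRCh38.p14), with the matched motif in capitals.
SDHD, chr11:112086753-112086782, plus strand, NRF1 core: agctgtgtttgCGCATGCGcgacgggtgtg
SDHD, chr11:112086784-112086813, plus strand, ETS site: accgcctctcgaCTTCCGGttcacccagca
UQCRQ, chr5:132866576-132866605, plus strand, ETS site: aaatggtatctcCCGGAAGttacctcacga
COX6B1, chr19:35648299-35648328, plus strand, ETS site: cacctctctcagCTTCCGGctggtagtagt
ATP5ME, chr4:674335-674364, minus strand, NRF1 core: gccgctgacggCGCATGCGtgcgcccagct
SDHB, chr1:17054215-17054244, minus strand, NRF1 core: gaagccaaatggGCATGCGccgctactgcg
UQCRH, chr1:46303640-46303669, plus strand, ETS site: gagtgtgccgcaCTTCCGGccagatcgccg
COX8A, chr11:63974590-63974619, plus strand, ETS site: ccagctccagaaCTTCCGGccagcgcagcc

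The ETS match in SDHD began 77 bases before the start, that in UQCRQ 54, that in COX8A 18 and that in COX6B1 12 bases before it. The NRF1 match in ATP5ME began 77 bases before the start and that in SDHD 109. A window of 300 bases, 250 before and 50 after the start, was found for 50 of the 63 genes. The NRF1 core, GCATGCG on either strand, was present in 13 of the 50 (26%), against 6.78% of 8678 tested genes with a window and 4.13% of all 27305 windows; the letters CGCATGCG hold the core on both strands and were taken as 1 site. The ETS letters CCGGAAG, on either strand, were in 20 of the 50 (40%), against 21.3% and 10.7%. AAGATGG, a YY1 motif, was in 11 (22%, against 8.22% of tested genes), and the E-box CACGTG in 5 (10%, against 10.7%). Matches not printed above were an ETS site, a YY1 motif and an E-box in ATP5ME, and an ETS site and a YY1 motif in SDHB. Among the 24 windows of genes with both ketotifen libraries above both PBS libraries, 20.8% held the NRF1 core and 41.7% the ETS letters; among the other 25 tested these shares were 32% and 40%. A match describes letters and does not show a bound site.

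Levels spanned a wide range. The mean over the 4 libraries ran from 1.40 FPKM for COX16, an assembly factor of complex IV, to 844 FPKM for ATP5F1B, the catalytic beta subunit of ATP synthase, with a median of 84.7 FPKM over the 60. The 63 rows held 2.36% and 2.18% of all FPKM in PBS libraries A and B and 2.45% and 2.42% in ketotifen libraries A and B. The share was lowest in PBS library B. FPKM divides by the gene length behind the table. UQCRB with a length of 8710 bases and ATP5F1E with 3610 bases, both small proteins, were at 21.5 to 23.9 and 27.3 to 34.4 FPKM. UQCRHL with 538 bases was lower still, at 15.0 to 18.2 FPKM, and ATP5F1A with 6401 bases was at 128 to 158 FPKM. The part of length in these levels was not tested.

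**Figure D1:**
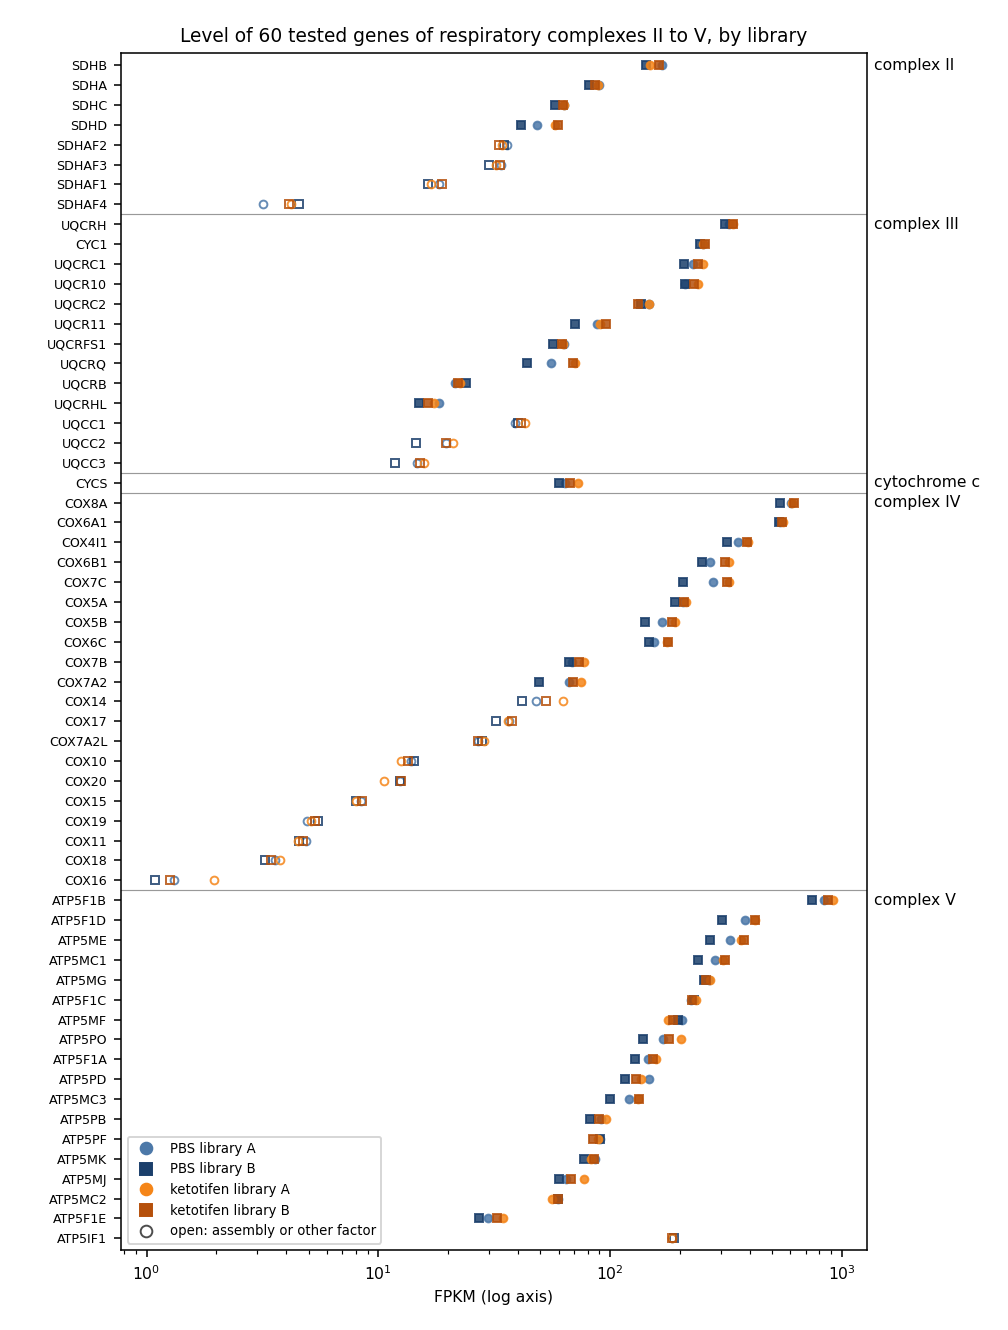
FPKM of the tested genes on a log axis, one row per gene grouped by complex, with a point for each of the 4 libraries. Subunits lie mostly to the right of assembly factors, and the 4 points of a gene lie close together compared with the distance between genes.

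Between ketotifen and PBS, no gene of complexes II to V passed the test. limma on log2(FPKM + 1) called 0 of 60 in either direction at an adjusted p under 0.05, and the background was low too: 0.00945% of 10586 tested genes were called higher and 0.113% lower. At an unadjusted p under 0.05, limma gave 23 of the 60 higher and 1 lower, against 10.0% and 10.3% of all tested genes. On the recovered reads, limma's voom called 16 of the 60 higher and 0 lower, against 3.35% and 3.56% of all tested genes, with adjusted p from 0.00183 to 0.0417. The median change over the 60 was 0.092 on the log2(FPKM + 1) scale, against -0.018 over all tested genes, and 30 of 60 had both ketotifen libraries above both PBS libraries, against 23.2% of all tested genes. In 4 genes both were below both PBS libraries, against 31.2%.

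One control library moved with this result. PBS library B was the lowest of the 4 libraries in 44 of the 60 genes, against 28.8% of all tested genes, and the median of PBS library B minus A was -0.129 (all tested genes 0.009), a larger step than the median between the groups. In 17 genes PBS library B was at least 0.2 below library A on the log2 scale, against 6.78%; SDHAF4 was the single gene at least 0.2 above it, against 6.08%. Between the ketotifen libraries, B minus A had a median of -0.023, with 2 genes at least 0.2 lower (3.93% of all genes) and 1 at least 0.2 higher (3.12%). Both ketotifen libraries lay above PBS library A in 34 of the 60, against 34.6% of all tested genes. Without PBS library B, the median over the 60 was 0.046, limma called 7 higher (SDHD, UQCRQ, COX6B1, COX6C, COX7C, COX14 and ATP5ME; 2.40% of all genes) and 0 lower (1.58%), and voom called 4 of its 16 higher (UQCRQ, COX6B1, COX6C and COX7C; 1.75%) and 0 lower (2.24%). Without PBS library A, limma called 30 higher, against 10.0% of all genes, and 0 lower, against 8.27%. With 1 control library left, that library is assumed to vary as the ketotifen pair does.

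**Figure D2:**
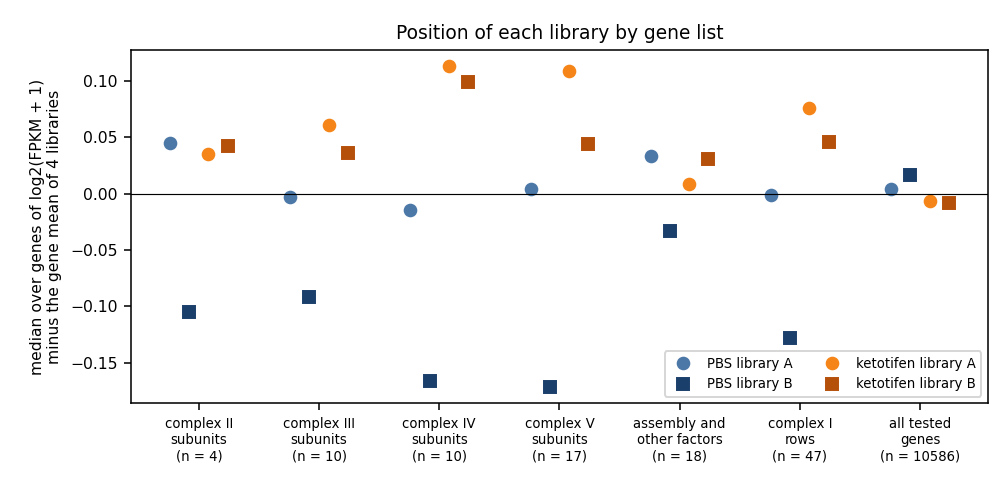
Median over each list of genes of log2(FPKM + 1) in each of the 4 libraries, relative to the gene's mean over the 4, for the subunits of each complex, the assembly and other factors, complex I and all tested genes. PBS library B is the lowest point in every list but that of all tested genes, where it is at 0.016; it is at -0.17 for the subunits of complexes IV and V, where PBS library A is at -0.014 and 0.0039.

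Gene length and level also went with the change. The shortest decile of tested genes, 91 to 1343 bases by the lengths read from the FPKM steps, had a median change of 0.084 and a median PBS B minus A of -0.083, and 44.2% of these genes had both ketotifen libraries higher; in the longest decile the median change was -0.089 and the share 6.04%. The shortest decile held 36 of the 60 genes, with a median change of 0.105 and 21 with both libraries higher. Of 329 other genes that were both short and in the highest decile of level, 203 (61.7%) had both ketotifen libraries higher and the median change was 0.128; of the 25 genes of complexes II to V in that class, 18 (72%) did and the median was 0.167. After subtracting the median of each gene's length decile, the median over the 60 was 0.043, with 40 of 60 above 0. Of all tested genes, about as many lie above 0 as below by construction. By complex, the median was -0.037 in complex II (3 of 8 above 0) and 0.040 in complex III (9 of 13). It was 0.095 in complex IV (17 of 20) and 0.110 in complex V (10 of 18). The part of length or level in the change was not tested.

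**Figure D3:**
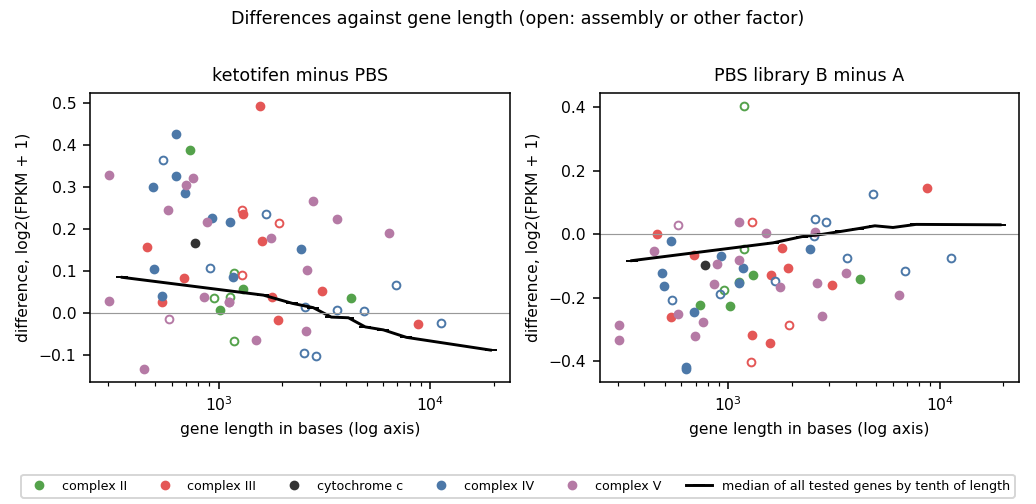
Change on the log2(FPKM + 1) scale against gene length on a log axis, ketotifen minus PBS on the left and PBS library B minus A on the right, one point per gene, with the black line the median of all tested genes by decile of length. The line falls from 0.084 in the shortest decile to -0.089 in the longest on the left, and starts at -0.083 on the right.

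In complex II the change was positive in 7 of 8 tested genes and negative in 1, against 44.3% positive over all tested genes. Of the 8, limma called 0 and voom 1 (all tested genes 3.35% higher), and 1 had both ketotifen libraries higher (23.2%). The median change was 0.036, but its sign depended on scaling: it was -0.014 with equal FPKM sums, -0.023 with the length trend removed (lengths from the read steps) and -0.038 without PBS library B. SDHB, the iron-sulfur subunit and the highest of the complex, was at 168 and 143 FPKM with PBS and 149 and 162 FPKM with ketotifen, so the groups overlapped, and the change was 0.0052 ± 0.081 (SE). SDHA, the flavoprotein that oxidizes succinate, was at 90.0 and 81.5 FPKM with PBS and 88.9 and 86.5 FPKM with ketotifen, with a change of 0.034 ± 0.061 (SE). SDHC, which anchors the enzyme in the membrane with SDHD, was at 63.2 and 57.7 FPKM with PBS and 63.1 and 62.6 FPKM with ketotifen, and its groups overlapped as well.

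SDHD, the other anchor, was at 48.4 and 41.3 FPKM with PBS and 57.9 and 59.6 FPKM with ketotifen, a ratio of means of 1.31, with no overlap between groups. The change was 0.39 ± 0.076 (SE; limma adjusted p = 0.0968), and voom on the recovered reads gave an adjusted p of 0.0114. Without PBS library B it was 0.27, with a limma adjusted p of 0.00713 and a voom adjusted p of 0.0848, so the voom call was lost. SDHD shares exon sequence on the opposite strand with TIMM8B, and whether reads were counted by strand is not given in the sources used here. Among the 4 assembly factors, SDHAF2, which attaches the flavin to SDHA, was at 35.9 and 34.8 FPKM with PBS and 34.1 and 33.3 FPKM with ketotifen, both ketotifen libraries below PBS, with a change of -0.066 ± 0.054 (SE). SDHAF1, SDHAF3 and SDHAF4 had overlapping groups.

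In complex III the largest change of all 60 genes was in UQCRQ, a small subunit near the cytochrome b core. It was at 55.8 and 43.7 FPKM with PBS and 70.5 and 69.3 FPKM with ketotifen, a ratio of means of 1.41 with both ketotifen libraries above both PBS libraries. The change was 0.49 ± 0.10 (SE; limma adjusted p = 0.10), and the voom adjusted p was 0.00183. Without PBS library B the change was 0.32 with a limma adjusted p of 0.00121 and remained a voom call. UQCRQ lies beside GDF9 and shares exon sequence with it on the opposite strand. In a reference annotation, exons of 27 of the 63 genes overlap another protein-coding gene on either strand. COX4I1, ATP5F1A, ATP5F1E, ATP5ME and ATP5PO are among them.

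The other subunits of the complex had smaller differences. UQCRH, the hinge protein and the highest member, was at 327 and 313 FPKM with PBS and 339 and 338 FPKM with ketotifen, a change of 0.081 ± 0.052 (SE); UQCRHL is a near-identical copy, so reads could be split between them. CYC1, cytochrome c1, which hands the electron to cytochrome c, was at 252 and 245 FPKM with PBS and 252 and 258 FPKM with ketotifen, a change of 0.037 ± 0.051 (SE). UQCR10 was at 211 and 211 FPKM with PBS and 239 and 231 FPKM with ketotifen and was the subunit in which PBS libraries A and B differed least, by 0.00096 on the log2 scale, with a change of 0.16 ± 0.051 (SE; limma adjusted p = 0.165). UQCRH, CYC1 and UQCR10 had no overlap between groups and none was called by limma or voom; the direction of UQCRH and CYC1 turned in at least 1 scaling. The change of UQCRC1, a core protein, was 0.17 ± 0.062 (SE; limma adjusted p = 0.194), from 228 and 208 FPKM with PBS and 252 and 239 FPKM with ketotifen. Its partner UQCRC2 had overlapping groups and a difference of -0.018 ± 0.068 (SE), as did the Rieske iron-sulfur protein UQCRFS1, with 0.051 ± 0.064 (SE). Over the 13 genes the median was 0.089, with 8 having both ketotifen libraries higher (all tested genes 23.2%), 0 lower (31.2%) and 1 called higher by voom (3.35%). Among assembly factors UQCC3 was at 14.6 and 11.8 FPKM with PBS and 15.7 and 15.1 FPKM with ketotifen with a change of 0.21 ± 0.093 (SE), and UQCC2 overlapped, with PBS library B at 14.6 FPKM and library A at 19.7 FPKM. UQCC1 and the subunit UQCR11 had both ketotifen libraries higher, by 0.089 ± 0.054 (SE) and 0.24 ± 0.10 (SE), and UQCRB and UQCRHL overlapped. Without PBS library B the changes of UQCC3 and UQCR11 were 0.070 and 0.078, and those of UQCRC1 and UQCC2 were 0.11 and 0.041.

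CYCS, cytochrome c, the mobile carrier between complexes III and IV, was at 64.2 and 60.0 FPKM with PBS and 72.6 and 67.1 FPKM with ketotifen. Both ketotifen libraries lay above both PBS libraries, and the change was 0.17 ± 0.062 (SE; limma adjusted p = 0.20); voom gave an adjusted p of 0.176.

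In complex IV, cytochrome c oxidase, all 10 tested nuclear subunits had both ketotifen libraries above both PBS libraries, against 23.2% of all tested genes. The share was 61.7% among other genes in both the shortest decile of length and the highest decile of level, a class without COX7B (2444 bases). The median change of the 10 subunits was 0.220. voom called 5 of them higher, against 3.35% of all tested genes, and limma called 0. The count with both ketotifen libraries higher was 10 of 10 also with median ratio scaling (27.2% of all tested genes). It was 7 with equal FPKM sums (14.6%), with quantile normalization (24.7%) and with the length trend removed by annotated lengths (25.9%). With the trend removed by lengths from the read steps it was 6 (25.8%). Both libraries were lower in 0 subunits with equal FPKM sums and in 1 with quantile normalization. With the length trend removed they were lower in 2 by annotated lengths and in 1 by lengths from the read steps. The median stayed positive in each of those settings, between 0.137 and 0.240, and was 0.133 without PBS library B. In the values as deposited each subunit's groups were separate, but PBS library B was the lower of the PBS pair in all 10.

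COX7C, a small subunit of the membrane part, was at 279 and 207 FPKM with PBS and 325 and 321 FPKM with ketotifen, a ratio of means of 1.33 and a change of 0.43 ± 0.12 (SE; limma adjusted p = 0.135). The PBS libraries differed by as much, -0.425 for B minus A, and the change without PBS library B was 0.21 with a limma adjusted p of 0.00696. COX6B1, which links the monomers of the dimer, was at 271 and 249 FPKM with PBS and 325 and 314 FPKM with ketotifen, with PBS libraries closer together at -0.123. Its change was 0.30 ± 0.060 (SE; limma adjusted p = 0.0981), its voom adjusted p was 0.00566, and without PBS library B it was 0.24. COX6C was at 155 and 148 FPKM with PBS and 176 and 177 FPKM with ketotifen, a change of 0.22 ± 0.052 (SE; limma adjusted p = 0.106) with a voom adjusted p of 0.0198.

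COX4I1, the regulatory subunit that binds ATP, was at 357 and 320.3 FPKM with PBS and 395 and 389.8 FPKM with ketotifen, with a change of 0.22 ± 0.063 (SE; limma adjusted p = 0.148) and a voom adjusted p of 0.0200. COX5B was at 168 and 141 FPKM with PBS and 190.4 and 186 FPKM with ketotifen (voom adjusted p 0.0177). COX8A and COX6A1, the highest of the complex, had groups that did not overlap, at 606 and 541 FPKM with PBS and 609 and 624 FPKM with ketotifen for COX8A and 544 and 536 FPKM with PBS and 559 and 551 FPKM with ketotifen for COX6A1; their changes were 0.10 ± 0.066 (SE) and 0.040 ± 0.052 (SE), and both turned negative in at least 1 scaling. COX7A2, at 66.3 and 49.4 FPKM with PBS and 75.2 and 68.9 FPKM with ketotifen, was the subunit in which PBS library B was lowest relative to A after COX7C, and its voom adjusted p was 0.0541. COX7B was at 68.8 and 66.6 FPKM with PBS and 76.9 and 73.8 FPKM with ketotifen, with a change of 0.15 ± 0.053 (SE; limma adjusted p = 0.182), and COX5A had a difference of 0.085 ± 0.056 (SE). Without PBS library B the voom calls of COX4I1 and COX5B were lost, at adjusted p of 0.0627 and 0.156, and the changes were 0.16 for COX5B, 0.12 for COX7A2, 0.032 for COX5A and 0.023 for COX8A.

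The tissue isoforms of complex IV were separated by level. COX7A1, the heart and muscle form, had a value above 0 in 1 library alone, ketotifen library A (0.321 FPKM), against 49.4 to 75.2 FPKM for COX7A2. COX6B2, the testis form, was at 0.042 to 0.247 FPKM against 249 to 325 FPKM for COX6B1. COX4I2, COX6A2, COX7B2 and COX8C were not analysed here.

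The 10 other tested complex IV genes, which build the enzyme or its supercomplexes, had a median change of 0.010. Both ketotifen libraries were higher in 1 of them and lower in 1, against 23.2% and 31.2% of all tested genes. voom called 1 of the 10 higher, against 3.35%. COX14, which stabilizes a newly made core subunit, was at 48.1 and 41.5 FPKM with PBS and 62.9 and 53.2 FPKM with ketotifen, with a change of 0.36 ± 0.094 (SE; limma adjusted p = 0.121) and a voom adjusted p of 0.0352, or 0.177 without PBS library B. COX10, which makes heme for the enzyme, was at 13.8 and 14.2 FPKM with PBS and 12.6 and 13.4 FPKM with ketotifen, both ketotifen libraries below PBS, with a change of -0.10 ± 0.062 (SE). The other 8 had overlapping groups, including COX7A2L, a supercomplex factor, at 27.1 and 28.0 FPKM with PBS and 28.7 and 26.9 FPKM with ketotifen.

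Complex V had 9 of 18 tested genes with both ketotifen libraries higher (all tested genes 23.2%), 2 lower (31.2%), 8 called higher by voom (3.35%), 0 called lower (3.56%) and a median change of 0.140, or 0.040 with quantile normalization. Without PBS library B the 8 voom calls were lost, with adjusted p from 0.0761 for ATP5PO to 0.299 for ATP5MC1, and the median was 0.070. In the catalytic head, ATP5F1B was at 838 and 746 FPKM with PBS and 917 and 874 FPKM with ketotifen, a change of 0.18 ± 0.070 (SE; limma adjusted p = 0.210) and a voom adjusted p of 0.0417. ATP5F1D, the delta subunit, was at 381 and 305 FPKM with PBS and 421 and 422 FPKM with ketotifen, with a voom adjusted p of 0.0141, and ATP5F1E, the epsilon subunit, at 29.8 and 27.3 FPKM with PBS and 34.4 and 32.5 FPKM with ketotifen. ATP5F1A had a change of 0.19 ± 0.069 (SE), whereas ATP5F1C, the gamma shaft, was at 223 and 229.7 FPKM with PBS and 234 and 227 FPKM with ketotifen with overlapping groups.

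The identical c subunit of the ring is encoded by 3 genes. ATP5MC1 was at 285 and 239 FPKM with PBS and 306 and 312 FPKM with ketotifen and ATP5MC3 at 120.3 and 100.5 FPKM with PBS and 132 and 133 FPKM with ketotifen, with changes of 0.24 ± 0.081 (SE) and 0.27 ± 0.081 (SE) and voom calls for both. ATP5MC2 was at 59.5 and 59.8 FPKM with PBS and 56.1 and 59.6 FPKM with ketotifen, a change of -0.044 ± 0.054 (SE) with overlapping groups. The difference between the genes was not tested.

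In the membrane part, ATP5ME, which helps hold the dimer together, was at 328 and 269 FPKM with PBS and 368 and 379 FPKM with ketotifen, a change of 0.33 ± 0.088 (SE; limma adjusted p = 0.127) and a voom adjusted p of 0.0124. ATP5MJ also had both ketotifen libraries higher, by 0.22 ± 0.072 (SE), and ATP5MG and ATP5MK overlapped. ATP5MF lay lower with ketotifen, at 205 and 197 FPKM with PBS and 178 and 188 FPKM with ketotifen, a change of -0.13 ± 0.054 (SE; limma adjusted p = 0.220); its exons overlap PTCD1 on the same strand. In the peripheral stalk, ATP5PO was at 169 and 139 FPKM with PBS and 203 and 180.0 FPKM with ketotifen, with a voom adjusted p of 0.0157, ATP5PF was at 90.4 and 90.6 FPKM with PBS and 88.8 and 84.3 FPKM with ketotifen, below PBS in both libraries, and ATP5PB and ATP5PD overlapped. ATP5PD had a PBS pair of 147 and 116 FPKM with both ketotifen libraries between. ATP5IF1, the inhibitor that stops the synthase from running backwards, was at 185 and 189 FPKM with PBS and 186 and 185 FPKM with ketotifen, with a change of -0.014 ± 0.049 (SE) and a 95% interval from -0.13 to 0.10.

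**Figure D4:**
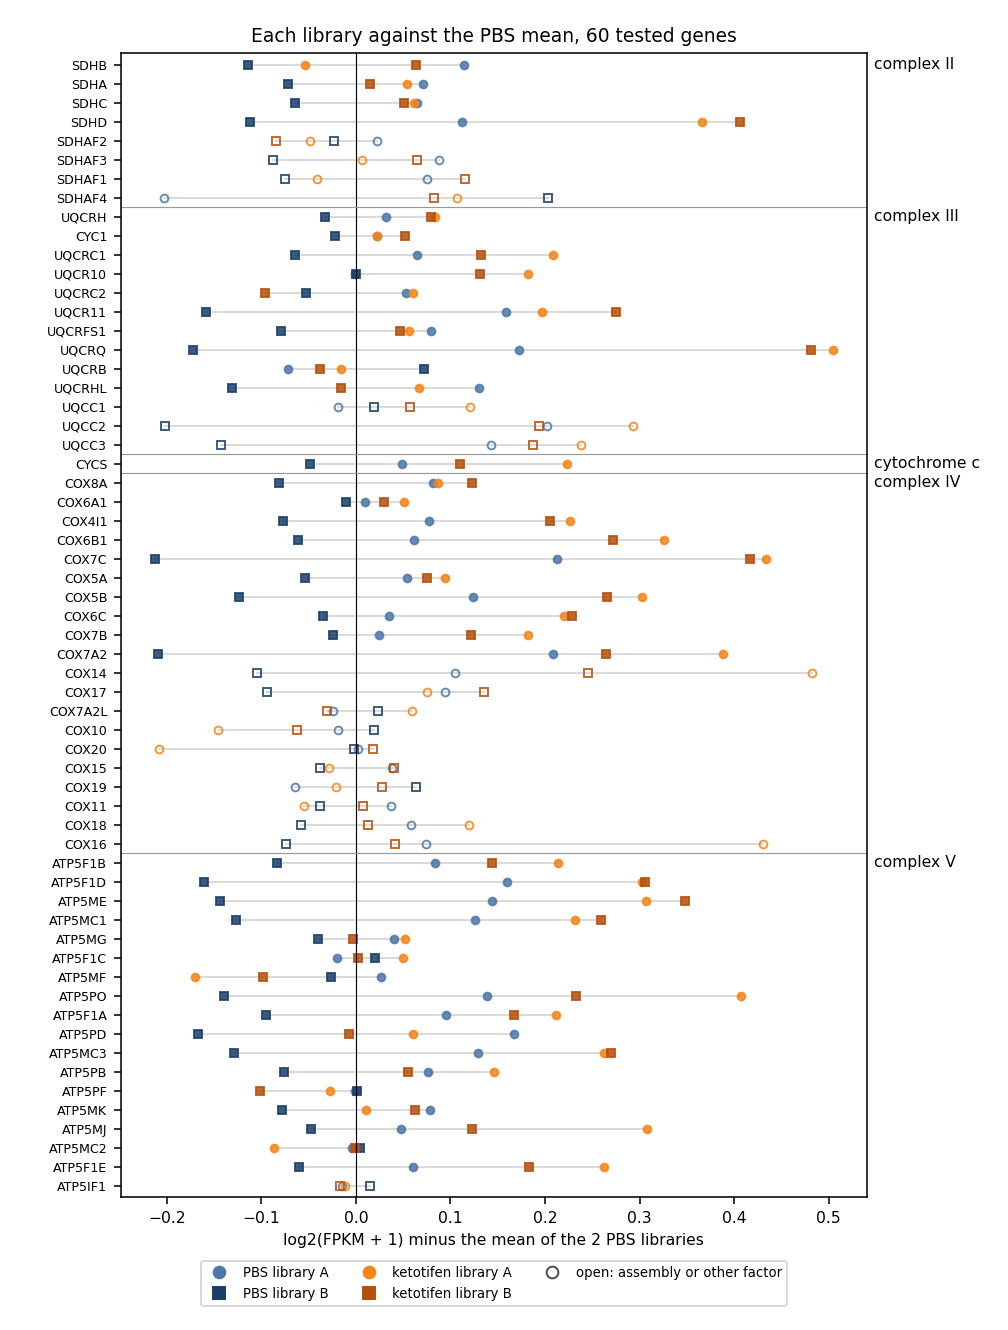
Difference of each library from the mean of the PBS libraries, on the log2(FPKM + 1) scale, one row per gene ordered by complex, with filled points for subunits and open points for assembly and other factors. Both ketotifen points lie right of both PBS points in all 10 complex IV subunits, and PBS library B is the leftmost point in 44 of 60 rows.

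Over the 42 tested subunits with cytochrome c, 27 had both ketotifen libraries higher and 2 lower, against 23.2% and 31.2% of all tested genes, the median change was 0.154 and voom called 15 higher, against 3.35%. Over the 18 assembly and other factors, 3 were higher and 2 lower, the median was 0.036 and voom called 1 higher, which can be read against the same shares. The difference between subunits and factors was not tested. The subunits with cytochrome c had a median level of 151 FPKM and a median length of 1067 bases, and the factors 16.0 FPKM and 1479 bases. Summed over subunits, complex IV was at 2720 and 2450.0 FPKM with PBS and 2945 and 2914 FPKM with ketotifen, and complex V at 3532 and 3120 FPKM against 3760 and 3677 FPKM. The sums for complex II were 370 and 324 FPKM against 359 and 371 FPKM, which overlap, and those for complex III were 1413 and 1324 FPKM against 1494 and 1464 FPKM.

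**Figure D5:**
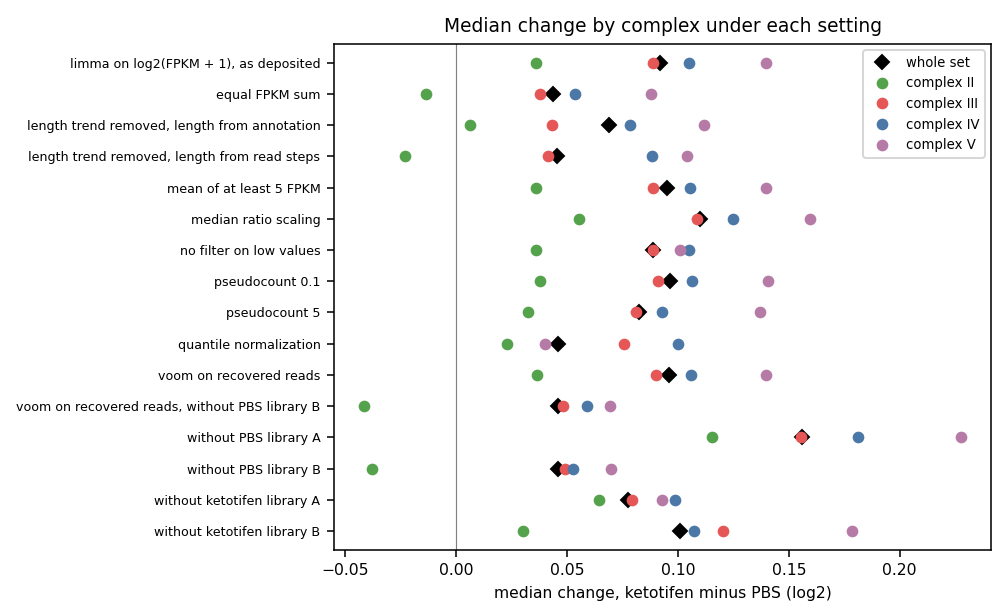
Median change of the genes of each complex, ketotifen minus PBS on the log2 scale, under each processing setting; the whole set, all 60 tested genes, is in black. Complexes III, IV and V stay above 0 in every setting shown, and complex II crosses 0, down to -0.042 on recovered reads without PBS library B.

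Other genes of the same pathway were taken from 2 lists. Of 29 further assembly and maturation factors 27 were tested: limma called 0 and voom 3 higher and 0 lower (all tested genes 3.35% and 3.56%), with a median change of 0.091. Both ketotifen libraries were higher in 14 of the 27 and lower in 5, against 23.2% and 31.2% of all tested genes. The voom calls were SCO2, a copper chaperone of complex IV, at 25.6 and 25.4 FPKM with PBS and 31.3 and 30.2 FPKM with ketotifen; COA6, which works with it, at 18.9 and 15.4 FPKM with PBS and 21.4 and 23.0 FPKM with ketotifen; and NDUFA4, now counted as a complex IV subunit, at 118 and 85.9 FPKM with PBS and 135 and 123 FPKM with ketotifen. Of 13 regulators of mitochondrial genes 12 were tested, voom called 1 higher (3.35%) and the median was 0.053. That call was ESRRA, an orphan nuclear receptor, at 27.9 and 23.9 FPKM with PBS and 30.6 and 31.3 FPKM with ketotifen. Both ketotifen libraries were higher in 6 of the 12 and lower in 2 (23.2% and 31.2%). PPARGC1A, a coactivator of this programme, stayed under 1 FPKM in all libraries. PPARGC1B, on the same list, was at 7.47 and 7.85 FPKM with PBS and 6.94 and 6.93 FPKM with ketotifen. PPRC1 was at 28.6 and 31.1 FPKM with PBS and 25.8 and 28.7 FPKM with ketotifen, with overlapping groups. Their changes were -0.12 ± 0.066 (SE) and -0.13 ± 0.071 (SE). NRF1 itself was at 6.70 and 6.94 FPKM with PBS and 8.09 and 7.00 FPKM with ketotifen. In complex I, the entry point for NADH, 47 rows (symbols starting with NDUFA, NDUFB, NDUFC, NDUFS or NDUFV, NDUFA4 among them) gave a limma count of 0 higher and 1 lower (all tested genes 0.00945% and 0.113%), a voom count of 11 higher and 1 lower (3.35% and 3.56%) and a median change of 0.137. Of the 47, 26 had both ketotifen libraries higher and 5 lower (23.2% and 31.2%). Without PBS library B the median change was 0.059 for the further factors, 0.0021 for the regulators and 0.077 for complex I.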

How the data were processed

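RNA was measured by sequencing of stranded mRNA libraries, per the labels' protocols. The deposited values are FPKM, computed by the authors; fastp, HISAT2, HTSeq and GRCh38 are named in the submitters' processing notes. Not given in the sources used here are the annotation, gene lengths, scaling total and strand setting. Tests were run on genes averaging 1 FPKM or more, by limma-trend (limma 3.58.1, R 4.3.3) on log2(FPKM + 1), a scale that understates changes of low genes; p-values were two-sided and Benjamini-Hochberg adjusted over 10586 genes, with calls under 0.05. An exact permutation test with 2 against 2 libraries cannot go below 0.333 and was not made. Whole reads were recovered from the FPKM steps for 100% of tested genes, within 0.05 reads, and limma's voom was run on them as an alternative. These steps also gave gene lengths. The read recovery and the fits were checked on simulated data, and the lengths were not. At the scale chosen for the lengths, 84.44% of the 1028 genes used had a whole number of bases within 0.03.

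Values in every library are given for genes chosen by rule: the highest gene and the 3 subunits with the smallest p in each complex, voom calls up to 12, isoform pairs, the factor with the smallest p, ATP5IF1, CYC1, CYCS and genes lower in both ketotifen libraries. The other genes named with values, in part or in full, were chosen after their values were seen. The genes and lists were chosen with earlier results of these data known, and the level deciles after values were seen. Scripts ran in Python 3.11.15.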

Additional observations from a re-analysis of the deposited data

How the results depend on the processing

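Of the settings tried, the choice of control library and of test decided how many of the 60 genes were called. limma called 0 with all libraries, voom on recovered reads 16, and voom without PBS library B, an alternative chosen after seeing the data, 4. Leaving out 1 library in turn gave limma counts from 0 to 30 (30 without PBS library A, 7 without PBS library B, 0 without either ketotifen library). The same step moved the median change over all 60 from 0.0457 to 0.1559, over complex II from -0.0378 to 0.1155, over complex III from 0.0491 to 0.1555, over complex IV from 0.0528 to 0.1812 and over complex V from 0.0697 to 0.2278. The median of complex II was -0.0416 with voom without PBS library B, and that of complex V was 0.0399 with quantile normalization. The cause was not tested. Other pseudocounts, filters, scalings and the removal of the length trend left limma's count of called genes at 0. Of 510 values of 34 named genes under alternatives, 482 kept their direction and 28 turned. The 28 all came from settings that changed the scaling, removed the length trend or left out a library. Many of these genes were chosen for a small p or a voom call in these same data. The share that kept its direction therefore does not measure how reliable the directions are. No paired analysis was possible because the columns carry letters that match no replicate number in the labels. The unadjusted 95% interval of a gene's change reached a median of 0.157 to either side on the log2 scale.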
